A study of Physcomitrium patens with 4 samples.

Results

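Among the 18800 genes listed for the moss *Physcomitrella patens*, 2 genes, Pp1s60_190V6 and Pp1s107_77V6, were taken up here because their best Arabidopsis match was BAG6 and because their tag counts were high in fresh protoplasts and low in culture. The values below were therefore in view when the genes were chosen, and their levels and ratios are given as a description with no test. The best match of 6 genes was BAG6, of 2 genes BAG4 and of 0 genes BAG1, BAG2, BAG3, BAG5 or BAG7. The BAG domain (Pfam PF02179) was annotated in 10 genes, and it was the sole domain given for Pp1s60_190V6 and Pp1s107_77V6.

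BAG proteins are co-chaperones. Their BAG domain binds the ATPase domain of HSP70 chaperones and speeds the exchange of nucleotide, which lets HSP70 release the protein it holds. Arabidopsis BAG6 also binds calmodulin through an IQ motif, is induced by heat and has been linked to programmed cell death and autophagy in that plant. The roles given below for matched genes are those of their Arabidopsis or general eukaryotic counterparts, and none was assayed in the moss here.

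Protoplasts, which are cells freed of their walls, came from wild-type protonemata, the filamentous stage of the moss, after digestion with the wall-degrading enzyme mix Driselase in mannitol. Samples were taken on isolation (t-0) and after 24, 48 and 72 h of culture (t-24, t-48 and t-72), in medium that still held mannitol. Cultures were dark until 24 h and then under a light and dark cycle, so an effect of light between t-24 and t-48 and one of age cannot be told apart. Pooled RNA of a time point gave 1 digital gene expression library, with no replicates. No protonemata before digestion were analysed here, so t-0 is the state after enzyme treatment and washing and not that of the intact plant.

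The gene tags summed to 2247746 at t-0, 1750184 at t-24, 1964182 at t-48 and 2445814 at t-72. Tags were short sequences next to a CATG site, so a count does not grow with the whole length of a transcript. How many CATG sites were counted for each gene is not given in the sources used here, so counts of different genes compare tags and not transcripts. The 10 genes with the most tags held 4.39% to 7.90% of the tags in the first 3 libraries and 24.2% at t-72. For ratios, each library size was scaled with TMM (trimmed mean of M-values), and the ratios carry exact 95% intervals that cover counting error only. Levels are tags per 1000000 gene tags before that scaling, with 95% Wilson intervals. As a check on the tissue, the 124 genes matched to light-harvesting, photosystem and RuBisCO small subunit proteins of green cells held 58161, 15969, 236606 and 46739 tags in the order of time. The 6 genes matched to the rhizoid and caulonema regulators RHD6 and RSL held 914, 694, 222 and 342 tags. Fewer cells of a type and less RNA per cell cannot be told apart in such libraries.

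Pp1s60_190V6 was among the most counted genes of fresh protoplasts and was almost lost from the library by t-48. It had 1719 tags at t-0, 64 at t-24, 4 at t-48 and 79 at t-72. These counts were 765 tags per 1000000 (729 to 802), 36.6 (28.6 to 46.7), 2.04 (0.792 to 5.24) and 32.3 (25.9 to 40.3). By its count the gene stood at place 138 at t-0, 5510 at t-24, 11876 at t-48 and 3731 at t-72 among all genes of each library. In tags per 1000000 the order of the levels was t-0, t-24, t-72 and t-48, and the intervals overlapped between t-24 and t-72 alone.

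Pp1s107_77V6 had fewer tags in every library and was also highest at t-0. It had 439 tags at t-0, 7 at t-24, 0 at t-48 and 7 at t-72. The levels were 195 tags per 1000000 (178 to 214) at t-0, 4.00 (1.94 to 8.26) at t-24 and 2.86 (1.39 to 5.91) at t-72. For the count of 0 at t-48, 3 tags in that library would be 1.53 tags per 1000000, and the Wilson interval reached 1.96. Tags seen once had been removed before deposit, so a 0 may hide such a tag. The intervals at t-24 and t-72 overlapped. The Wilson limit of 1.96 for t-48 lay within both, just above the lower end of that at t-24. The level of 3 tags, 1.53, lay within the interval at t-72 and under that at t-24.

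**Figure D1:**
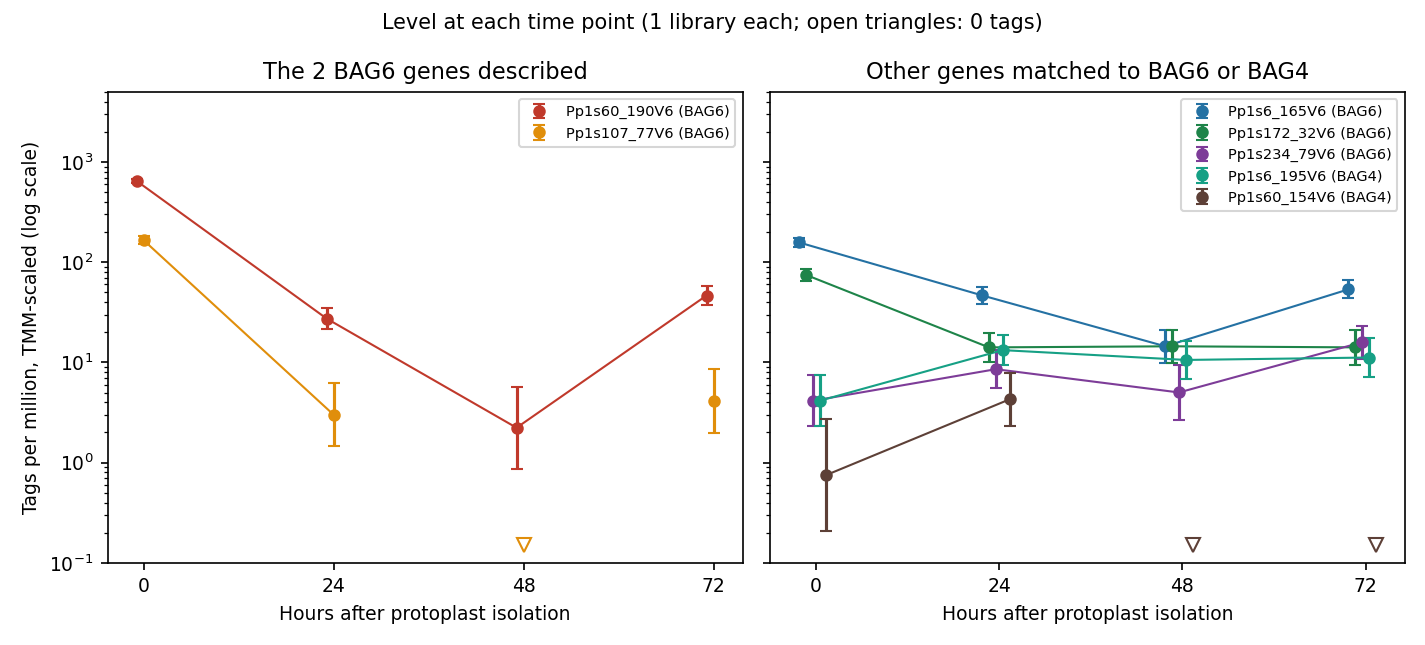
Tags per 1000000 on TMM-scaled library sizes (log axis) against hours after protoplast isolation for Pp1s60_190V6 and Pp1s107_77V6 (left) and for 5 other genes matched to BAG6 or BAG4 (right), 1 library per time point. Bars are 95% Wilson intervals for counting error, open triangles mark 0 tags, and lines stop there. Both genes on the left are highest at t-0, whereas the BAG4 match Pp1s6_195V6 is lowest at t-0. Pp1s27_369V6, with 3 tags in all, is not drawn.

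On the scaled sizes, Pp1s60_190V6 was 23.6-fold lower at t-24 than at t-0 (95% interval 18.4 to 30.8). It was 12.3-fold lower at t-48 than at t-24 (4.57 to 46.5), from 64 tags to 4. It was 20.9-fold higher at t-72 than at t-48 (7.84 to 78.5), a ratio that rests on those 4 tags. Against t-0 itself, the level at t-48 was 290.3-fold lower (113 to 1067). The gene did not return to its first level, being 13.9-fold lower at t-72 than at t-0 (11.1 to 17.7). Between t-24 and t-72 the ratio was 1.70-fold higher (1.21 to 2.40) with TMM, and its direction turned when the libraries were scaled by their total gene tags, with a log2 ratio of -0.18 (-0.67 to 0.32).

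Pp1s107_77V6 was 55.1-fold lower at t-24 than at t-0 (26.5 to 138). It was at least 98.8-fold lower at t-48 than at t-0, taking 3 tags in place of 0. At t-72 it was 40.1-fold lower than at t-0 (19.3 to 100.3). The steps between the later libraries involved 7 tags or fewer, giving at least 1.79-fold lower from t-24 to t-48 and at least 2.47-fold higher from t-48 to t-72. Between t-24 and t-72 the ratio was 1.38-fold higher (0.412 to 4.60), an interval that holds 1.

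The pair was chosen for its drop, so its place among well-counted genes is a description only. Of the 4645 genes with at least 100 tags at t-0, 73 (1.57%) had a larger drop than Pp1s60_190V6 by t-24 and 27 (0.581%) a larger one than Pp1s107_77V6. The median log2 ratio of these 4645 genes was -0.61. By t-48 the larger drops numbered 50 and 9. By t-72 they numbered 345 (7.43%) and 135 (2.91%).

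The calls over all genes used edgeR's exact test with counting error alone, a p and a Benjamini-Hochberg adjusted p of at most 0.01, a ratio of at least 4 and at least 100 tags in the higher library, among genes with at least 10 tags in the pair. This test compares 2 libraries and not the conditions. From t-0 to t-24, 4.88% of the 15077 genes tested were called lower and 2.43% higher, and both BAG6 genes were among those called lower. From t-0 to t-48, 9.49% of genes tested were called lower and 6.51% higher, and from t-0 to t-72, 7.9% lower and 6.09% higher, again with both BAG6 genes among those called lower. Since the genes were chosen from these values, nothing is read from those counts. From t-24 to t-48 (6.82% called lower, 7.49% higher), from t-48 to t-72 (7.06% and 7.65%) and from t-24 to t-72 (5.61% and 7.04%), neither gene was called, and both had under 100 tags in each of these libraries. Without that minimum Pp1s60_190V6 was called lower at t-48 than at t-24 and higher at t-72 than at t-48, whereas Pp1s107_77V6 had under 10 tags in each of these 2 pairs and was not tested.

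Of the other genes matched to BAG6, Pp1s6_165V6 and Pp1s172_32V6 did not drop as far. Pp1s234_79V6 and Pp1s27_369V6 had too few tags at t-0 to show such a drop. Pp1s6_165V6 had 419, 109, 26 and 91 tags in the order of time. It was 3.38-fold lower at t-24 than at t-0 (2.73 to 4.21), which was not called, and 10.9-fold lower at t-48 than at t-0 (7.32 to 16.9), which was. Pp1s172_32V6, which carries an IQ motif (PF00612) beside its BAG domain, had 199, 33, 26 and 24 tags. It fell 5.30-fold by t-24 (3.65 to 7.92), and its ratios between the later libraries lay within counting error. Pp1s234_79V6, also annotated with an IQ motif, had 11, 20, 9 and 27 tags. Pp1s27_369V6 had 3 tags at t-48 and 0 in the other libraries.

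Ratios of counts within a library need no scaling. Since the pair was chosen for its fall, they only describe how far it parted from Pp1s6_165V6. At t-0 there were 4.10 tags of Pp1s60_190V6 for each tag of Pp1s6_165V6 (3.68 to 4.58). The ratio was 0.587 at t-24 (0.424 to 0.807), 0.154 at t-48 (0.0390 to 0.443) and 0.868 at t-72 (0.634 to 1.19). Pp1s107_77V6 was level with Pp1s6_165V6 at t-0, with a ratio of 1.05 (0.914 to 1.20). It then stood at 0.0642 of that gene at t-24 (0.0252 to 0.137) and 0.0769 at t-72 (0.0301 to 0.165). The 2 genes of the pair did not keep a fixed ratio to each other either. Pp1s60_190V6 had 3.92 tags for each tag of Pp1s107_77V6 at t-0 (3.52 to 4.36), 9.14 at t-24 (4.19 to 23.7) and 11.3 at t-72 (5.23 to 29.0). The last 2 intervals overlap each other, and the one at t-72 lies above that at t-0.

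Together the 6 BAG6 genes held 2787 tags at t-0, 233 at t-24, 68 at t-48 and 228 at t-72. The sum was 10.5-fold lower at t-24 than at t-0 (9.20 to 12.1). It was 7.81-fold lower at t-72 than at t-0 (6.82 to 8.98), and 13.3-fold lower when scaled by total gene tags. The pair supplies most of the sum at t-0 and was chosen for that pattern. The 4 other BAG6 genes summed to 629, 162, 64 and 142 tags, 3.41-fold lower at t-24 than at t-0 (2.87 to 4.08) and 2.83-fold lower at t-72 (2.36 to 3.42). Pp1s60_190V6 gave 61.7% of these tags at t-0 (59.9 to 63.5), 27.5% at t-24 (22.1 to 33.5), 5.88% at t-48 (2.31 to 14.2) and 34.6% at t-72 (28.8 to 41.0). Pp1s107_77V6 gave 15.8%, 3.0%, 0 and 3.1%. Pp1s6_165V6 gave 15% at t-0 and the largest share at t-24, 46.8% (40.5 to 53.2). At t-48 it and Pp1s172_32V6 had 38.2% each.

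**Figure D2:**
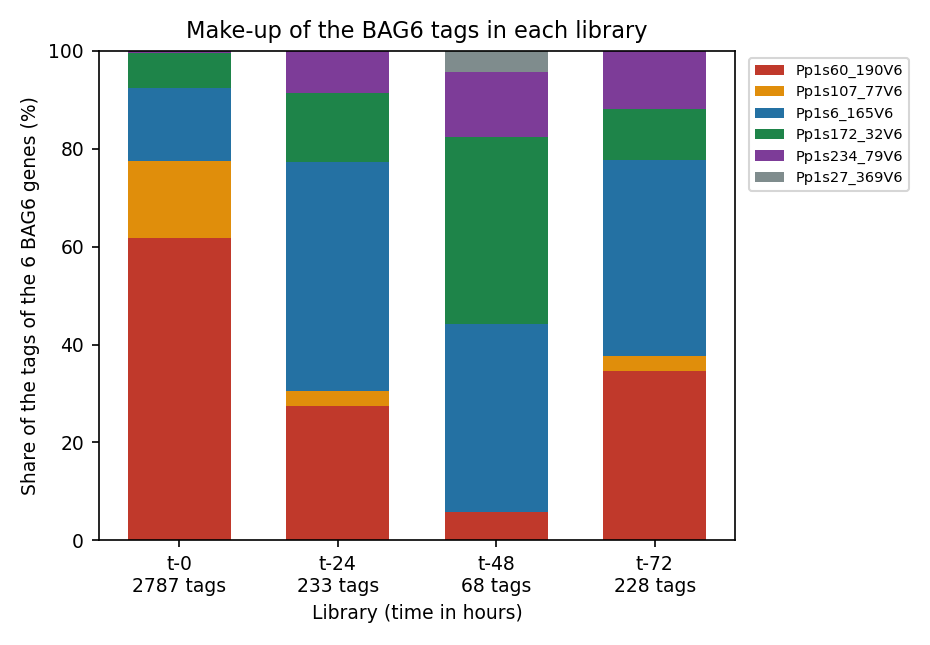
Share of the tags of the 6 genes matched to BAG6 (%, stacked bars) in the library of each time point, with the summed tags under each bar. Pp1s60_190V6 and Pp1s107_77V6 fill most of the bar at t-0 (61.7% and 15.8%), and Pp1s6_165V6 and Pp1s172_32V6 most of it at t-48 (38.2% each).

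The genes matched to BAG4, whose Arabidopsis counterpart also binds HSP70, had too few tags at t-0 to show a drop as large as that of the pair. Pp1s6_195V6 had 11, 31, 19 and 19 tags and was 3.21-fold higher at t-24 than at t-0 (1.57 to 7.07), which was not called. Pp1s60_154V6, annotated with a ubiquitin domain (PF00240) beside the BAG domain, had 2, 10, 0 and 0 tags. The remaining genes with a BAG domain were Pp1s87_114V6, matched to an EF-hand calcium-binding protein, with 31, 8, 2 and 7 tags, and Pp1s149_292V6, with no named match, with 15, 3, 0 and 0 tags. In the list of 8 genes matched to BAG4 or BAG6, 7 were tested from t-0 to t-24, with a median log2 ratio of -1.75. Of these, 3 were called lower, among them the chosen pair, and 0 higher, beside 4.88% and 2.43% of all genes tested. Without the pair, 1 of 5 was called lower and the median was 1.02, beside -0.08 over all genes tested. That median rests on 3 genes with 2 to 31 tags in these libraries, and the summed tags of the list without the pair went from 642 to 203, 2.78-fold lower (2.37 to 3.27).

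HSP70 proteins are the chaperones that BAG domains bind. Of the 23 genes matched to HSP70, 19 were tested from t-0 to t-24, and the median log2 ratio was -1.25. Of these, 5 (26.3%) were called lower and 0 higher, beside 4.88% and 2.43% of all genes tested. The cytosolic HSC70-1 match Pp1s298_26V6 had 992, 36, 6 and 345 tags and fell 24.2-fold by t-24 (17.4 to 34.8). It rose 60.8-fold from t-48 to t-72 (27.6 to 167), an interval that overlaps that of Pp1s60_190V6. The match to HSP91, a member of the HSP70 family despite its name, Pp1s40_190V6, had 341, 27, 18 and 109 tags and fell 11.1-fold by t-24 (7.50 to 17.1). BIP2, the HSP70 of the endoplasmic reticulum, Pp1s181_3V6, fell 7.69-fold (6.34 to 9.41) and then rose 16.9-fold by t-48 (13.9 to 20.6), with 1006, 115, 1490 and 1838 tags.

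The BAG6 tags were also set beside the HSP70 tags of the same library, as a description, since the pair that carries the BAG6 sum at t-0 was chosen for its fall. There were 51.5 BAG6 tags for 100 tags of all HSP70 genes at t-0 (49.2 to 53.9), 9.81 at t-24 (8.54 to 11.2), 1.88 at t-48 (1.46 to 2.39) and 4.87 at t-72 (4.24 to 5.56). Against the 11 genes matched to cytosolic HSC70 alone, the values were 150 (142 to 160), 28.9 (24.9 to 33.5), 5.29 (4.08 to 6.76) and 40.7 (34.7 to 47.6). A single cytosolic gene, Pp1s97_279V6, held most of those tags at t-48. Without it the values were 189 (177 to 201), 104 (85.8 to 125), 131 (89.8 to 191) and 50.7 (43.0 to 59.5), so that the low value at t-48 was no longer seen and t-72 became the lowest. This subset and the gene left out were chosen after the values were seen. With the pair left out instead, the 4 other BAG6 genes gave 11.6 tags per 100 of all HSP70 genes at t-0 (10.7 to 12.6), 6.82 at t-24 (5.78 to 8.004), 1.77 at t-48 (1.36 to 2.26) and 3.03 at t-72 (2.55 to 3.58).

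**Figure D3:**
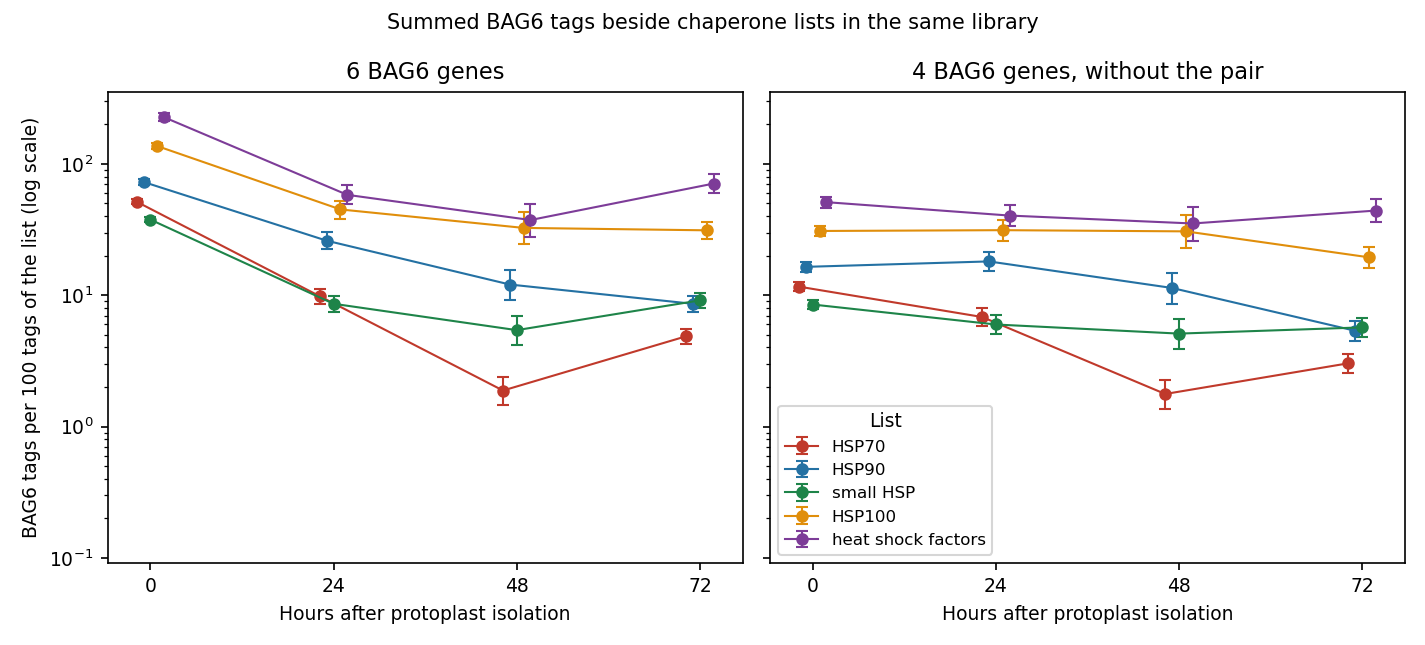
Summed tags of the 6 BAG6 genes (left) and of the 4 without Pp1s60_190V6 and Pp1s107_77V6 (right) per 100 tags of each chaperone list (log axis) in the library of each time point, with exact 95% intervals for counting error. With the pair all 5 lists have their highest value at t-0 (51.5 for HSP70, 226 for heat shock factors). Without it the intervals for HSP90, HSP100 and heat shock factors at t-24 overlap those at t-0. Their values are 18.1, 31.3 and 40.4 at t-24 and 16.4, 30.8 and 51.1 at t-0.

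Co-chaperones other than BAG proteins include nucleotide exchange factors, HSP70-HSP90 adaptors and the ubiquitin ligase CHIP, and of 10 tested 2 were called lower by t-24 and 0 higher, with a median log2 ratio of -0.42. CHIP (Pp1s245_25V6), which marks clients of HSP70 for degradation, had 691, 49, 42 and 8 tags and fell 12.4-fold by t-24 (9.27 to 16.9). Like the pair it stayed low at t-72. Fes1A (Pp1s81_237V6), an exchange factor of another family, fell 5.84-fold (4.63 to 7.46) and had 545, 82, 109 and 287 tags. Of 103 J-domain proteins, which stimulate the ATPase of HSP70, 5 were called lower and 0 higher, with a median of -0.24, a share of 4.85% against 4.88% of all genes. Among them the J2 match Pp1s174_37V6 had 2817, 428, 92 and 1143 tags and fell 5.79-fold by t-24 (5.23 to 6.42).

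Heat-response genes outside the HSP70 cycle are read against the 4.88% of all genes called lower by t-24 and the 2.43% called higher. Of 8 HSP90 genes tested 3 were called lower and 0 higher, with a median log2 ratio of -1.57. The matches to HSP90.1 parted at t-72, with 642, 80, 0 and 455 tags for Pp1s291_62V6 and 1026, 161, 2 and 65 for Pp1s258_52V6. The match to HSP81.4, Pp1s220_83V6, had 380, 54, 37 and 273 tags. Of 22 small heat shock proteins and HSP20-like genes, which hold unfolded proteins, 5 were called lower and 2 higher, with a median of -0.81. The HSP20-like Pp1s8_86V6 fell 31.8-fold (23.4 to 44.3), from 1518 tags to 42, and had 40 and 45 tags later. HSP21 (Pp1s97_106V6), a chaperone of the plastid, had 1063, 96, 0 and 15 tags. The HSP20-like SLT1 match Pp1s9_138V6 went the other way, rising 5.88-fold (4.08 to 8.71), with 35, 181, 91 and 109 tags. HSP101 (Pp1s300_55V6), which dissolves aggregates, was the gene called lower of 4 tested in its family, with 963, 153, 82 and 442 tags.

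Heat shock factors are the transcription factors of these genes, and Arabidopsis BAG6 is one of their targets in heat. Of 6 tested, 2 were called lower by t-24 and 0 higher, with a median of -1.32. These were HSF1 (Pp1s31_388V6), with 327, 42, 50 and 78 tags, and HSF3 (Pp1s249_84V6), with 460, 98, 72 and 95. The call of HSF3, at 4.13-fold (3.31 to 5.19), was lost under each other scaling, which left 1. Over the 8 chaperone and heat lists joined, without the BAG genes, 175 genes were tested from t-0 to t-24, 23 (13.1%) were called lower and 2 (1.14%) higher, and the median was -0.55. Without the minimum of 100 tags 34 were called lower and 9 higher, beside 1801 and 1270 of all 15077 genes tested. With an assumed dispersion of 0.16, which allows for spread between cultures, the counts were 7 and 0, beside 213 and 160.

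**Figure D4:**
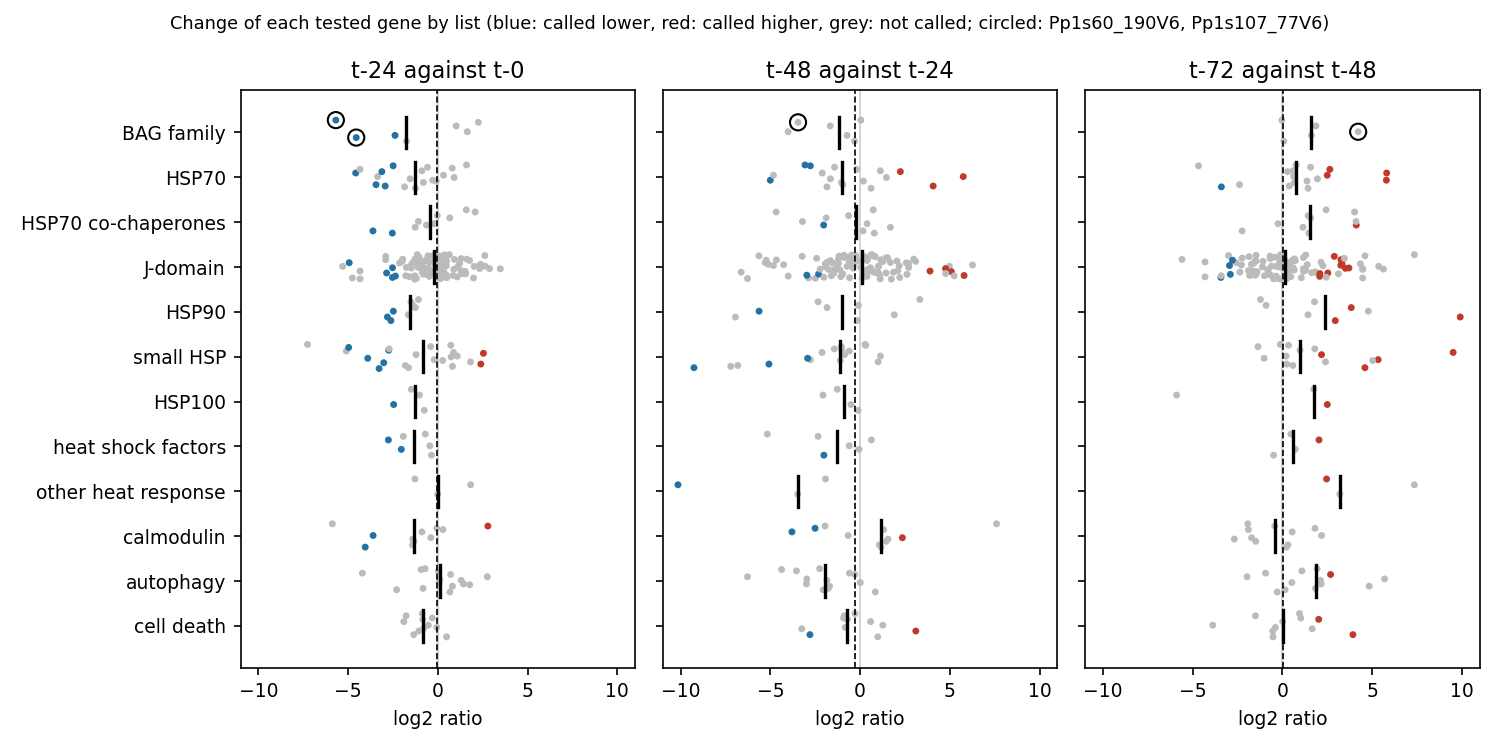
Log2 ratio of each tested gene (points) by list for t-24 against t-0, t-48 against t-24 and t-72 against t-48, with the median of each list (black bar) and of all genes tested (dashed line). Blue points were called lower, red points higher and grey points neither, and circles mark Pp1s60_190V6 and Pp1s107_77V6 where tested. Over the heat and chaperone lists joined, 23 of 175 tested genes were called lower and 2 higher by t-24, beside 4.88% and 2.43% of all genes tested. From t-48 to t-72, 5 of 154 were called lower and 24 higher, beside 7.06% and 7.65%.

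Calmodulin, the calcium sensor that Arabidopsis BAG6 binds, was matched by most of a list of 11 genes, which also held CML23 and 1 calcium-dependent kinase. By t-24, 2 were called lower and 1 higher, beside 4.88% and 2.43% of all genes tested, with a median log2 ratio of -1.33. CAM4 (Pp1s242_98V6) had 645, 46, 22 and 96 tags and fell 12.3-fold (9.14 to 17.01). CAM5 (Pp1s56_122V6) had 103, 5, 9 and 10 tags. CML23 (Pp1s263_50V6), a calmodulin-like protein, rose 6.97-fold (4.95 to 10.05), with 39, 239, 47 and 33 tags. Of 11 metacaspase, Bax inhibitor and DAD1 genes, which act in programmed cell death, and of 15 autophagy genes, 0 were called in either direction by t-24. Beside those shares, lists this short could well hold 0, and nothing is read from it. Their medians were -0.84 and 0.10.

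From t-24 to t-48, 12 of 164 joined heat and chaperone genes (7.32%) were called lower and 7 (4.27%) higher, beside 6.82% and 7.49% of all genes, with a median log2 ratio of -0.50, beside -0.29 over all genes. With total gene tags 19 were called lower and 6 higher, beside 1317 and 744 of all 14312 genes tested. While Pp1s60_190V6 went from 64 tags to 4, the plastid CPHSC70-2 match Pp1s115_168V6 fell 33.6-fold (18.6 to 67.7), from 481 tags to 11. HSP90.1 (Pp1s258_52V6) fell 61.8-fold (16.8 to 515), from 161 tags to 2. The mitochondrial MTHSC70-2 match Pp1s183_47V6 rose 57.5-fold (27.6 to 144), from 7 tags to 309. Of 11 calmodulin genes 2 were called lower and 1 higher in this step, with a median log2 ratio of 1.17. The CAM5 match Pp1s40_127V6 fell 14.6-fold (7.76 to 30.9), from 190 tags to 10. Another CAM5 match, Pp1s58_258V6, rose 5.13-fold (4.10 to 6.46), from 99 tags to 390. The green-cell genes changed in the same interval, with 74 of 115 called higher and 0 lower. Their part in the values of the BAG6 genes was not tested.

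From t-48 to t-72, when Pp1s60_190V6 went from 4 tags to 79 and Pp1s107_77V6 from 0 to 7, more heat and chaperone genes rose than fell. Of 154 tested, 24 (15.6%) were called higher and 5 (3.25%) lower, beside 7.65% and 7.06% of all genes, with a median log2 ratio of 0.60, beside 0.01 over all genes. With total gene tags 20 were called higher and 7 lower, with a median of 0.20. Of all 12648 genes tested, 779 were then called higher and 1112 lower, with a median of -0.38. HSP17.6A (Pp1s11_289V6), a small heat shock protein, rose 42.4-fold (22.8 to 89.1), from 10 tags to 401. HSP81.4 (Pp1s83_80V6), an HSP90, rose 14.4-fold (11.3 to 18.6), with 919, 338, 72 and 981 tags. J2 (Pp1s174_37V6) rose 13.1-fold (10.6 to 16.4), and HSP101 5.70-fold (4.49 to 7.30). Among the genes called lower, the HSC70-1 match Pp1s97_279V6 fell 10.6-fold (8.72 to 13.0), from 1233 tags to 110. The J-domain list gene Pp1s301_31V6 fell 6.89-fold (6.26 to 7.59), from 3516 tags to 483. Of 11 cell death genes 2 were called higher and 0 lower, with a median log2 ratio of 0.01. The Bax inhibitor-1 match Pp1s25_219V6, of a family that restrains cell death, rose 15.6-fold (9.91 to 25.9), with 536, 185, 20 and 295 tags. The autophagy gene APG5 (Pp1s227_54V6) rose 6.58-fold (3.98 to 11.5), with 20, 29, 18 and 112 tags. It was the 1 gene called of 13 autophagy genes tested (7.69%), a share near that of all genes called higher. In this interval 49 of 115 green-cell genes were called lower and 1 higher, and their part was again not tested.

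At t-72 the lists stood at different levels relative to t-0. The summed HSP90 tags were 1.08-fold higher than at t-0 (1.03 to 1.14) and the summed HSP70 tags 1.35-fold higher (1.30 to 1.41), and both turned lower with total gene tags, at 0.637 and 0.795 of t-0. The summed small heat shock proteins were 1.90-fold lower (1.81 to 1.98), HSP100 1.78-fold lower (1.64 to 1.94) and heat shock factors 2.44-fold lower (2.16 to 2.77). With total gene tags these were 3.23-fold, 3.04-fold and 4.16-fold lower. The 4 BAG6 genes outside the pair were 2.83-fold lower, or 4.82-fold with total gene tags, and their interval overlapped that of the heat shock factors. Within the libraries, BAG6 tags per 100 HSP90 tags went from 72.8 (69.3 to 76.5) at t-0 to 26.0, 12.1 and 8.60 (7.48 to 9.85). Per 100 tags of small heat shock proteins they went from 37.6 (36.0 to 39.3) to 8.60, 5.42 and 9.13 (7.94 to 10.5). Per 100 tags of heat shock factors they went from 226 (212 to 242) to 58.1, 37.4 and 70.8 (59.5 to 84.2). Without the pair the last of these went from 51.1 (46.3 to 56.3) to 40.4, 35.2 and 44.1 (35.9 to 53.9), and its intervals at t-0 and t-72 overlapped.

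Likeness of profile was measured over the 4 libraries as the distance between log2 ratios to t-0 at t-24, t-48 and t-72, among the 3938 genes with at least 100 tags at t-0 and a named match. The pair lay 2.19 apart. Both genes were chosen for high counts at t-0 and low ones later, so their closeness is a description only. Pp1s60_190V6 was the third nearest gene to Pp1s107_77V6, and Pp1s107_77V6 was at place 18 from Pp1s60_190V6, against median distances of 10.9 and 8.95. Nearest to Pp1s60_190V6 were MLO11 (Pp1s296_56V6), with 332, 16, 0 and 31 tags, and OEP16-1 (Pp1s284_71V6), a channel of the outer plastid envelope, with 109, 5, 0 and 10. Then came the mitochondrial protease LON1 (Pp1s5_15V6), with 155, 15, 0 and 9 tags, a serine-rich protein (Pp1s38_187V6), with 222, 25, 0 and 9, and an ARID domain protein (Pp1s342_36V6), with 138, 2, 0 and 14. All 5 were at 0 tags at t-48, where the distance depends on the count added to every gene.

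Nearest to Pp1s107_77V6 were a translation elongation factor (Pp1s266_52V6), with 276, 8, 0 and 3 tags, and the serine acetyltransferase SERAT1;1 (Pp1s212_107V6), which makes the precursor of cysteine, with 1726, 13, 2 and 27. After Pp1s60_190V6 came an AAA-type ATPase (Pp1s455_6V6), with 480, 40, 0 and 16 tags, and HSP21 (Pp1s97_106V6). HSP21 was the single gene of the heat and chaperone lists among these 10 neighbours. Those lists gave 6 of the 50 nearest genes to Pp1s60_190V6 and 4 of the 50 nearest to Pp1s107_77V6, beside 71 (1.80%) of the 3938. The BAG6 genes Pp1s6_165V6 and Pp1s172_32V6 came at places 388 and 506 from Pp1s60_190V6 and 430 and 509 from Pp1s107_77V6. Their distances were 5.83 and 6.23 from the first, under the median of 8.95, and 7.91 and 8.13 from the second, under 10.9. With 5 in place of 0.5 added to each count, 0 of the 5 neighbours of Pp1s60_190V6 and 1 of those of Pp1s107_77V6 remained. HSP21 then left the nearest 5 of Pp1s107_77V6 and the HSP20-like Pp1s8_86V6 entered.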

How the data were processed

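Per the labels and the study's methods, the authors digested cDNA with NlaIII and MmeI, sequenced the tags, removed adaptor, low-quality and single-copy tags, mapped the rest to gene sequences with Bowtie and removed tags of several genes, so near-identical copies lose their shared tags. The deposited counts are summed tags per gene. A second deposited column, headed TPM, holds tags per 100000 clean tags and served only to recover clean totals.

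TMM factors were computed from all 4 libraries together, whose totals limit precision as given above. The exact test of edgeR 4.0.16 (R 4.3.3) was run with a dispersion of 1e-09 and tested on simulated data. Log2 ratios carry a prior count of 0.5, and a fold against 0 tags is the bound that 3 tags leave. DESeq2 1.42.0 gave alternative size factors, and pandas 2.3.3, scipy 1.17.1 and numpy 2.4.6 under Python 3.11.15 did the rest, with matplotlib 3.10.9 for plots.

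The genes and lists were chosen with earlier results of these data known. Lists follow the best Arabidopsis match in the files, and after the values were seen LSD1-like demethylases were taken out of the cell death list and HIP1 out of HSP70. Named genes are every BAG match, a part of the eligible called genes of the lists, and the 5 nearest profiles. Eligible were up to 3 called genes per list and direction for t-24 against t-0 and up to 2 for the next steps. They were ranked by the interval limit closer to no change, but not all were named. Among those left out were the J-domain genes Pp1s112_204V6 (122, 3, 84 and 15 tags) and Pp1s159_108V6 (737, 89, 198 and 1877). So were the HSP20-like Pp1s194_15V6 (435, 25, 4 and 22) and Pp1s350_28V6 (86, 399, 0 and 346). Pp1s97_279V6 was left out of the HSC70 subset after its values were seen. Alternatives were total gene tags, clean tag totals, DESeq2 size factors, TMM on the pair, no filter on low counts, no minimum of 100 tags, an assumed dispersion of 0.16 and a prior count of 5.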

Additional observations from a re-analysis of the deposited data

How the results depend on the processing

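No paired analysis was possible because each time point had 1 library, and for the same reason no library could be left out of a comparison. The ratios of both genes to t-0 kept their direction under all 4 other scalings. For Pp1s60_190V6 the log2 ratio of t-72 to t-0 was -3.80 with TMM, -4.57 with total gene tags and -4.47 with clean tag totals, and that of t-72 to t-24 was 0.76, -0.18 and 0.0055. Total gene tags moved the median log2 ratio of all genes by 0.18 from t-0 to t-24, -0.55 from t-24 to t-48, -0.40 from t-48 to t-72 and -0.77 from t-0 to t-72, and clean tag totals by 0.09, -0.50, -0.26 and -0.67. Of all calls from t-24 to t-48, 52.3% were higher with TMM, 36.1% with total tags and 37.3% with clean totals, and from t-48 to t-72 52.0%, 41.2% and 45.2%. From t-0 to t-72 they were 43.5%, 21.2% and 23.4%. Without the minimum of 100 tags, 1801 genes were called lower and 1270 higher from t-0 to t-24, 3480 and 2126 from t-24 to t-48, and 2100 and 2253 from t-48 to t-72. With an assumed dispersion of 0.16, that is a coefficient of variation of 0.4 between cultures, these counts were 213 and 160, 521 and 588, and 467 and 576. Of 630 counts over lists, 97 moved by over 1.5 times under an alternative and 533 did not.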
